A study of Mus musculus with 14 samples.

Results

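The semaphorins, plexins, neuropilins, ephrins, Eph receptors, netrins and UNC5 receptors are the ligand and receptor families first described for steering growing axons. They were examined here in chromatin accessibility data from 7 mouse small cell lung cancer cell lines. Members were taken by gene symbol alone from the protein-coding genes of GRCm38. The rule gave 61 of 21887 genes, which were 20 semaphorins, 9 plexins, 2 neuropilins, 5 ephrin-A ligands, 3 ephrin-B ligands, 9 EphA receptors, 5 EphB receptors, 4 netrins and 4 UNC5 receptors. Each gene was given the accessible regions in its body and in the 10 kb on either side, which came to 918 of the 177684 regions found in any library.

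By label, 4 lines were RPR2;Nfibf/f (here Nfibf/f) and 3 were RPR2. In Nfibf/f, a liver metastasis was the source of each of 1398M1 and 1399M4, and a lung tumor that of each of 1398P2 and 1399P1. In RPR2, 1373M1 came from a liver metastasis, and 12N1G and N2N1G from lymph node metastases. RPR2 is the name used in this field for mice in which Rb1, Trp53 and Rbl2 are deleted in the lung, so by that name every line here lacks these tumor suppressors, and Nfibf/f adds a floxed allele of the transcription factor gene Nfib. Age, the Cre that drove the deletions and the clonality of the lines were not given in the labels used. Genotype and tissue were crossed in liver metastases alone, where RPR2 had 1 line. Every line had 2 libraries of ATAC-seq, an assay that reads out accessible DNA by where a transposase can cut it and add adapters. The line was taken as the replicate, since nothing says that its libraries came from separate cultures. The labels do not say whether 1398M1 came from the same animal as 1398P2, or 1399M4 from that of 1399P1.

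Semaphorins bind plexins, and the secreted class 3 semaphorins do so mostly through neuropilins as co-receptors. Ephrins are tethered to the cell surface and bind Eph receptor tyrosine kinases on a touching cell, with signals passing into both cells, usually ephrin-A to EphA and ephrin-B to EphB. Netrins attract through DCC and repel through UNC5 receptors. Small cell lung cancer is a neuroendocrine tumor, and NFIB is a nuclear factor I protein known for promoting its metastasis in mice and for opening chromatin in metastatic cells.

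In 13 of the 14 libraries the lists held 65009 to 84220 peaks, and the number of fragments per base pair, solved from the peak statistics, lay between 0.632 and 1.134. The second library of 1398P2 stood apart in its number of peaks, at 33558, and had the lowest depth, at 0.507 fragments per bp, while the first library of that line had the highest. The second library enters every Nfibf/f mean below. A region without a peak can be closed in most cells or open too weakly or in too few cells to be called, and these cannot be told apart. The labelled cell type was checked on gene starts. Of 9 neuroendocrine marker genes with a start window, 8 had a peak in all 14 libraries, among them Chga, Syp and Dll3, and Nkx2-1 had none. None of 5 lymphocyte and myeloid markers and none of 5 hepatocyte markers had a peak in any library. Of 2 endothelial genes, Kdr had one in all 14 and Tek in 10. Of 2 lung epithelial genes, Hopx had one in all 14 and Sftpb in 0, and of 2 fibroblast genes, Col1a2 had one in 4 and Pdgfra in 0. The targeted gene, Nfib, had, in its 2 libraries each, 10 and 11 regions in 1398M1, 11 and 11 in 1399M4, both from liver, and 9 and 4 in 1398P2 and 16 and 16 in 1399P1, both from lung, against 16 and 15 in 1373M1, 19 and 23 in 12N1G and 20 and 20 in N2N1G. These groups of lines met at 1399P1 and 1373M1, and the log2 difference, Nfibf/f minus RPR2, was -0.85 ± 0.21 (SE, limma, adjusted p = 0.0827). Peaks do not show a floxed exon that is missing from within a gene, so this value does not check the deletion.

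Guidance genes held more regions than an average gene in every line, and they were longer. The median member was 40.5 kb long and had 10 regions in any library, against 17.2 kb and 4 regions over all protein-coding genes. Per 100 kb of gene and flank, the members had 9.58 regions, against 9.43 for all genes. The members with the most regions among the receptors were Plxna4 with 60, Ephb2 with 44 and Plxna2 with 31, and among the ligands Sema6d with 53, Sema5a with 36 and Efna5 with 35. At the other end stood Plxna3 with 3 regions and Efnb3 with 4. After scaling each line to a common total, at which all genes averaged 2.86 regions, the members averaged 6.28 and 5.6 in the Nfibf/f liver lines 1398M1 and 1399M4 and 5.05 and 5.71 in the Nfibf/f lung lines 1398P2 and 1399P1, against 6.99 in the RPR2 liver line 1373M1 and 7.01 and 7.01 in the RPR2 lymph node lines 12N1G and N2N1G. The 4 Nfibf/f lines were thus all below the 3 RPR2 lines.

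**Figure D1:**
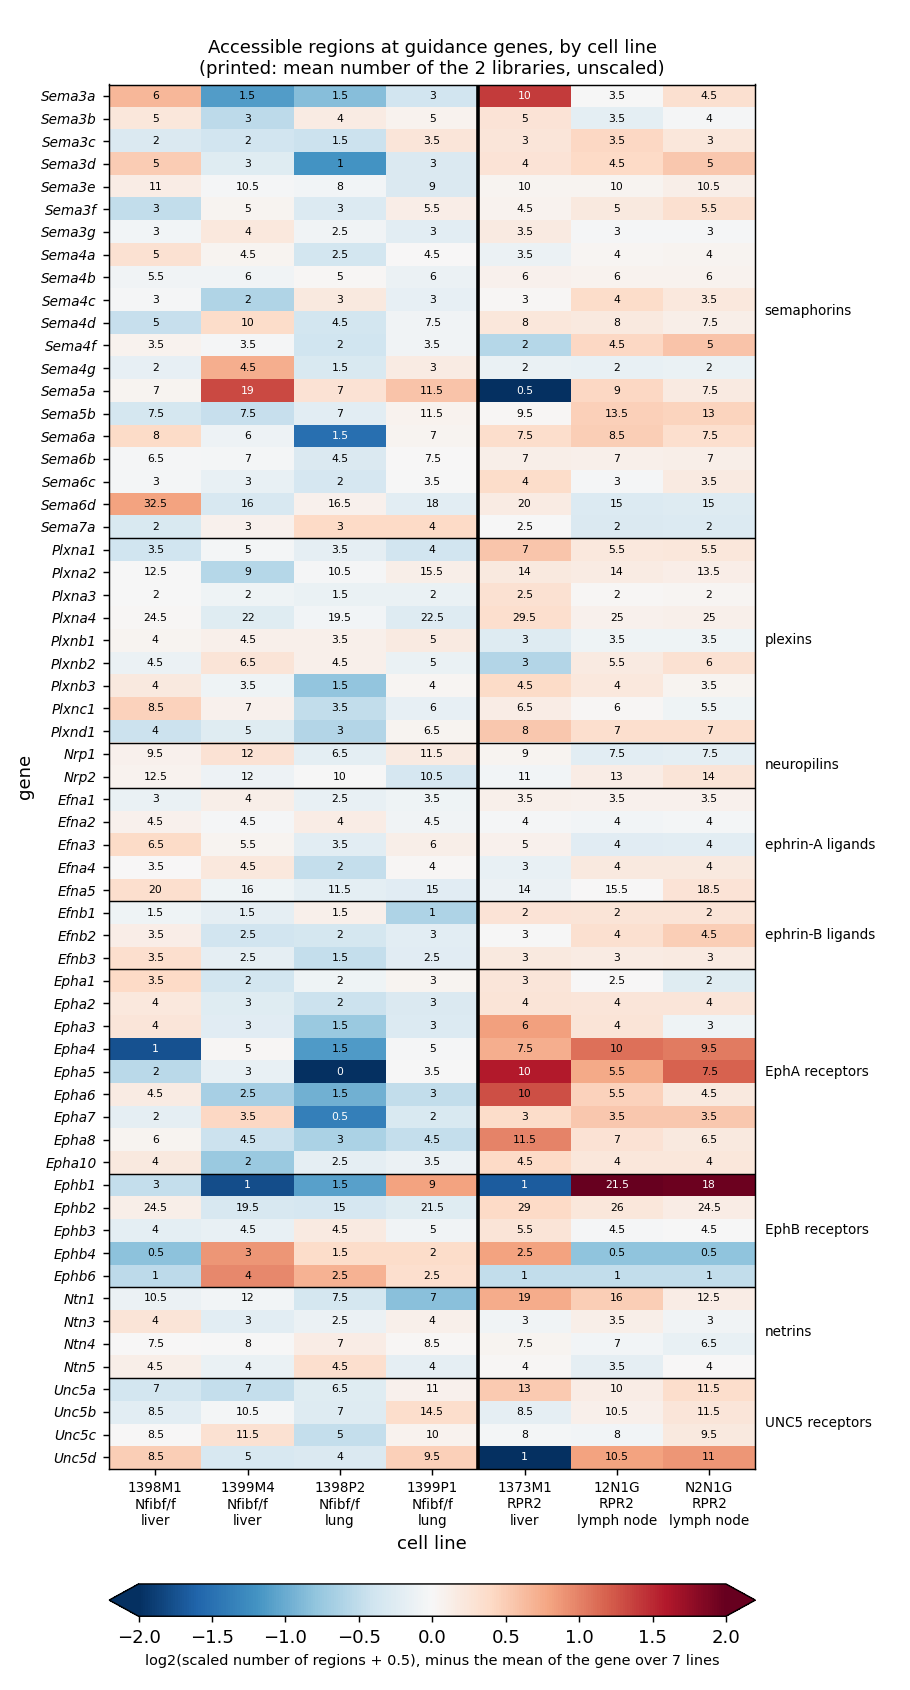
Number of accessible regions at the 61 guidance genes (rows, by family) in 7 cell lines (columns, Nfibf/f left of the black line and RPR2 right of it). Printed numbers are the mean of 2 libraries, and color gives log2 of the scaled number plus 0.5, minus the mean of the gene, with values past 2 in either direction drawn at the end of the scale. EphA genes are mostly blue on the left and red on the right, and Sema5a, Ephb1 and Unc5d are dark blue in 1373M1, at 0.5, 1 and 1 regions.

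At the start sites the share of member windows with a peak in every library was near that of all genes. RefSeq start windows, from 250 bases before to 50 after an annotated start, were at hand for 53 members, in 67 windows. Of these, 35 (52.2%) had a peak in all 14 libraries, against 49.5% of 21263 windows of protein-coding genes. A further 22 (32.8%) had a peak in some libraries, against 17.2% of all windows, and 10 (14.9%) had one in none, against 33.3%. Among the 22, 11 windows of 10 genes lacked a peak in the second library of 1398P2 alone, the low-depth one, and 7 of these stood at the 6 genes Epha1, Epha2, Epha3, Epha4, Epha7 and Epha8. These 11 made up 16.4% of member windows, against 3.9% of all windows. No member start was open in every line of one genotype and closed in every line of the other. Such windows were rare over all genes too, at 0.103% open in Nfibf/f alone and 0.0705% open in RPR2 alone. Windows with a peak in all libraries had a median of 25 CpG dinucleotides in 300 bases, those with a peak in some libraries 15.5 and those with none 3.5. Over all genes these medians were 23, 10 and 3.

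The sequences before 7 starts are shown for the members on which the results turn. Epha4 had the smallest p between genotypes, Ephb2 had the most regions of any Eph receptor, Ephb1 and Sema5a had a peak at the start in 1373M1, where their bodies were empty, and the starts of Efna4, Ntn3 and Ephb4 were open in some lines and closed in others. Each run is the 250 bases before the start from RefSeq, build GRCm38.p6, written 5′ to 3′ on the strand of the gene. The windows are chr1:77515089-77515338 (minus strand) for Epha4, chr4:136836013-136836262 (minus) for Ephb2, chr9:102354694-102354943 (minus) for Ephb1, chr15:32244563-32244812 (plus) for Sema5a, chr3:89338029-89338278 (minus) for Efna4, chr17:24209388-24209637 (minus) for Ntn3 and chr5:137349859-137350108 (plus) for Ephb4. Capitals mark the short NFI site TTGGCA on either strand and the E-box CAGCTG, a word bound by the neural basic helix-loop-helix factors.
Epha4: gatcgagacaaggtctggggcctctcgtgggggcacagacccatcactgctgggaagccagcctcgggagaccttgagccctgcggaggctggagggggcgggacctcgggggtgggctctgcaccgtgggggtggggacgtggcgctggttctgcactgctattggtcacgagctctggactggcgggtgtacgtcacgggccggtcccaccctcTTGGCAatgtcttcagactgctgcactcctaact
Ephb2: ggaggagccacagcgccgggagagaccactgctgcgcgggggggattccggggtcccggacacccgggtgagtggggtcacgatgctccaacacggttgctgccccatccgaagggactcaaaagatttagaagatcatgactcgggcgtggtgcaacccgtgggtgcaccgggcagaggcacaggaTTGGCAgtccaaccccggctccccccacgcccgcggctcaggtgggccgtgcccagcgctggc
Ephb1: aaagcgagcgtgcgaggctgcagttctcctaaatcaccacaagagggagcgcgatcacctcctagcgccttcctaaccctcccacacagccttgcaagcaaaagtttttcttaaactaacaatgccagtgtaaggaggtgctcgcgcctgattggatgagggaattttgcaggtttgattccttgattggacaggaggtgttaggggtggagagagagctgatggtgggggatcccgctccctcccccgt
Sema5a: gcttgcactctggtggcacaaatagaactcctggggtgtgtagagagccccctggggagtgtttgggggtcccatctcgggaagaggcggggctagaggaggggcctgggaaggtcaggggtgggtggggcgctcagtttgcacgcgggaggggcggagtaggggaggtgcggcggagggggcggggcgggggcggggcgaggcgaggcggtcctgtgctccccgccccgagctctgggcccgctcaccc
Efna4: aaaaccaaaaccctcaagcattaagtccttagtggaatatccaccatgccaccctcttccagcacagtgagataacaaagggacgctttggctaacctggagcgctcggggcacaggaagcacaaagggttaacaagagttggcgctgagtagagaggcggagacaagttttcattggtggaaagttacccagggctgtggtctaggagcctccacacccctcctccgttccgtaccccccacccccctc
Ntn3: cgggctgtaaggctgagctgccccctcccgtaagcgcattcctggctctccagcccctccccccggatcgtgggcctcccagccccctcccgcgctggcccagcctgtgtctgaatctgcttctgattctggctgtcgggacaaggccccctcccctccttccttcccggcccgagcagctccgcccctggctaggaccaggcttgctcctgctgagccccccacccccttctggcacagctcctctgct
Ephb4: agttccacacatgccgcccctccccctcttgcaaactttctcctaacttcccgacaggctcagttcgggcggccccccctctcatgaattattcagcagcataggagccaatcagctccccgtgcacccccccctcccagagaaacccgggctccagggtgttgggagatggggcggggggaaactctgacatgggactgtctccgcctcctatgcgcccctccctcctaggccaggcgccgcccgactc
Of these 7 runs, those of Epha4 and Ephb2 held 1 short NFI site each and none held the E-box. Over all 67 windows the short site stood in 3 (4.48%), those of Epha4, Ephb2 and Sema4b, against 14.1% of all windows of the table and 9.9% of those with a peak in all 14 libraries. The full NFI palindrome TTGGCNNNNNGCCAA, whose ends overlap the short site, stood in none of the member windows and in 0.0365% of all windows. The E-box stood in 10 member windows (14.9%), against 16.3% of all. The runs held 14 CpG dinucleotides at Epha4, 20 at Ephb2, 10 at Ephb1, 17 at Sema5a, 7 at Efna4, 11 at Ntn3 and 12 at Ephb4.

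The starts that differed between lines did so within genotypes. The start of Efna4, an ephrin-A ligand, had a peak in all 8 Nfibf/f libraries and in the 4 lymph node libraries of RPR2, and in neither library of 1373M1. A second start of Plxnb2, a class B plexin, showed the same 12 libraries, while its first start was open in all 14. The start of Ntn3, a netrin, was open in both libraries of 1398M1 and 1399P1 and, in RPR2, in both of 12N1G and N2N1G, and closed in 1399M4, 1398P2 and 1373M1. The start of Ephb4, the ephrin-B2 receptor of veins, had a peak in the first library of 1398P2 and in both of 1373M1 and in no other. A start within Sema4d was open in both libraries of 1399M4 and the first of 1398P2 alone. The starts of Epha5 and Epha6, receptors of ephrin-A ligands, were closed in both libraries of 1398P2, and that of Epha6 also in the second library of 1399M4. The start of Sema3d, and those of Sema4a with a peak in any library, were closed in both libraries of 1398P2 as well.

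**Figure D2:**
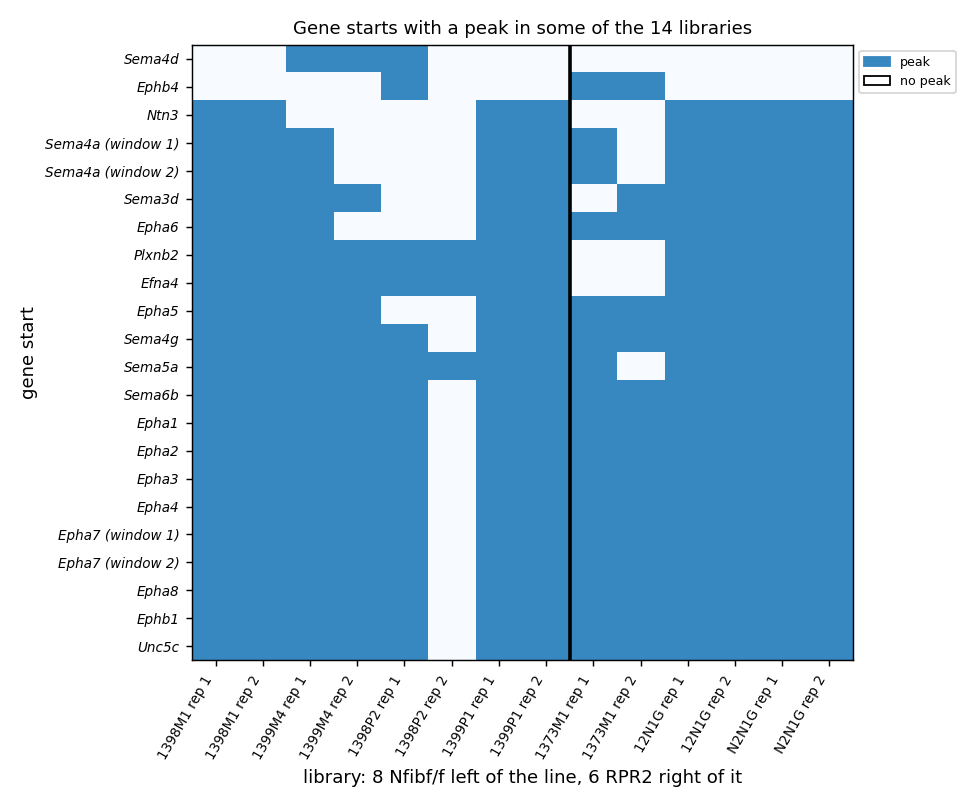
Start windows of guidance genes that had a peak in 1 to 13 of the 14 libraries (rows), by library (columns, 8 Nfibf/f left of the line and 6 RPR2 right of it). Blue cells have a peak; 11 of the 22 rows are white in the second library of 1398P2 alone, and Efna4 and Plxnb2 are white in both libraries of 1373M1.

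Away from the starts accessibility was far less shared. Of 52 gene and region pairs at a start window, 61.5% had a peak in all 14 libraries, against 6.49% of 724 pairs elsewhere in gene bodies and 15.8% of 146 in the flanks. The 8 members with no start window at hand had all their pairs counted in bodies or flanks. A region with a peak in both libraries of a line was called open there, and one with a peak in neither was called closed. Of the 918 regions, 669 were open in at least 1 line and 102, at 49 genes, were open in all 7. Regions with the same state in both libraries of every line, and open somewhere, numbered 342. Of these, 29.8% were open in all 7 lines, against 41.0% of such regions over all genes. The share open in 1373M1 alone was 12.6% (43 regions at 24 genes), against 5.57% over all genes, and 14 of the 43 lay at EphA genes, among them 4 at Epha6 and 3 each at Epha3 and Epha5. The share open in 12N1G and N2N1G alone was 8.19% (28 regions), against 5.2%, with 8 of the 28 at Ephb1. The share open in 1399M4 alone was 10.8% (37 regions), against 12.6%, with 5 at Sema5a. Sema6d held 5 of the 10 regions open in 1398M1 alone. These shares describe the lines and were not tested.

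**Figure D3:**
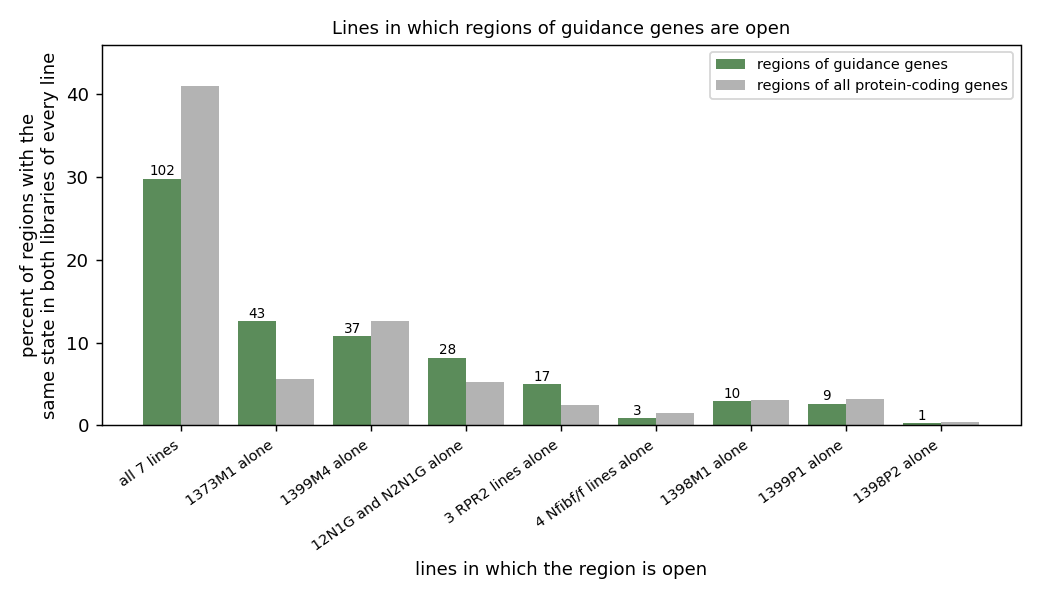
Share of regions (y axis, percent of regions with the same state in both libraries of every line) by the lines in which they were open (x axis), for the guidance genes (green, number of regions above the bar) and all protein-coding genes (grey). The bars for 1373M1 alone are 12.6% and 5.57%, and those for all 7 lines 29.8% and 41.0%.

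The first comparison set Nfibf/f against RPR2 lines and asked which genes had more or fewer regions. No guidance gene passed. The members leaned to fewer regions in Nfibf/f, most of all the EphA receptors. The numbers of regions per line, scaled to a common total, were compared with limma on log2(number + 0.5), a scale that makes changes at genes with few regions look smaller. Of the members, 51 reached the mean of 3 regions needed for the test and 10 did not (Efnb1, Efnb3, Epha1, Epha7, Ephb4, Ephb6, Plxna3, Sema3c, Sema4g and Sema7a). At an adjusted p under 0.05, 0 of the 51 were called, against 1.08% of the 7533 genes tested (0.717% higher and 0.358% lower). At an unadjusted p under 0.05 there were 13, all lower, against 10.8% of all genes lower and 10.5% higher. The log2 difference was negative for 39 members and positive for 12, with a median of -0.25, against -0.02 over all genes tested. All Nfibf/f lines lay below all RPR2 lines at 15 members (29.4%), against 11.3% of all genes, and above them at 1 (1.96%), Plxnb1, against 8.84%.

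The EphA receptors, tyrosine kinases for the ephrin-A ligands, had the lowest values. All 7 tested were negative with a median log2 difference of -0.86, 6 of them at an unadjusted p under 0.05 and none called. All 7 were also negative without scaling (median -0.81) and without 1373M1 (median -0.61). Epha4, a receptor of both ephrin classes known from the guidance of corticospinal axons, had 1 and 1 regions in 1398M1 and 5 and 5 in 1399M4, the liver lines of Nfibf/f, and 3 and 0 in 1398P2 and 5 and 5 in 1399P1, its lung lines, against 8 and 7 in 1373M1, 10 and 10 in 12N1G and 10 and 9 in N2N1G. The lowest RPR2 library lay above the highest Nfibf/f library. The line means were 3.12 ± 2.17 in Nfibf/f (SD, n = 4) and 9 ± 1.32 in RPR2 (SD, n = 3), and the log2 difference was -1.67 ± 0.40 (SE, limma, adjusted p = 0.0785). In both libraries of 1398M1 the one region was at the start shown above.

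**Figure D4:**
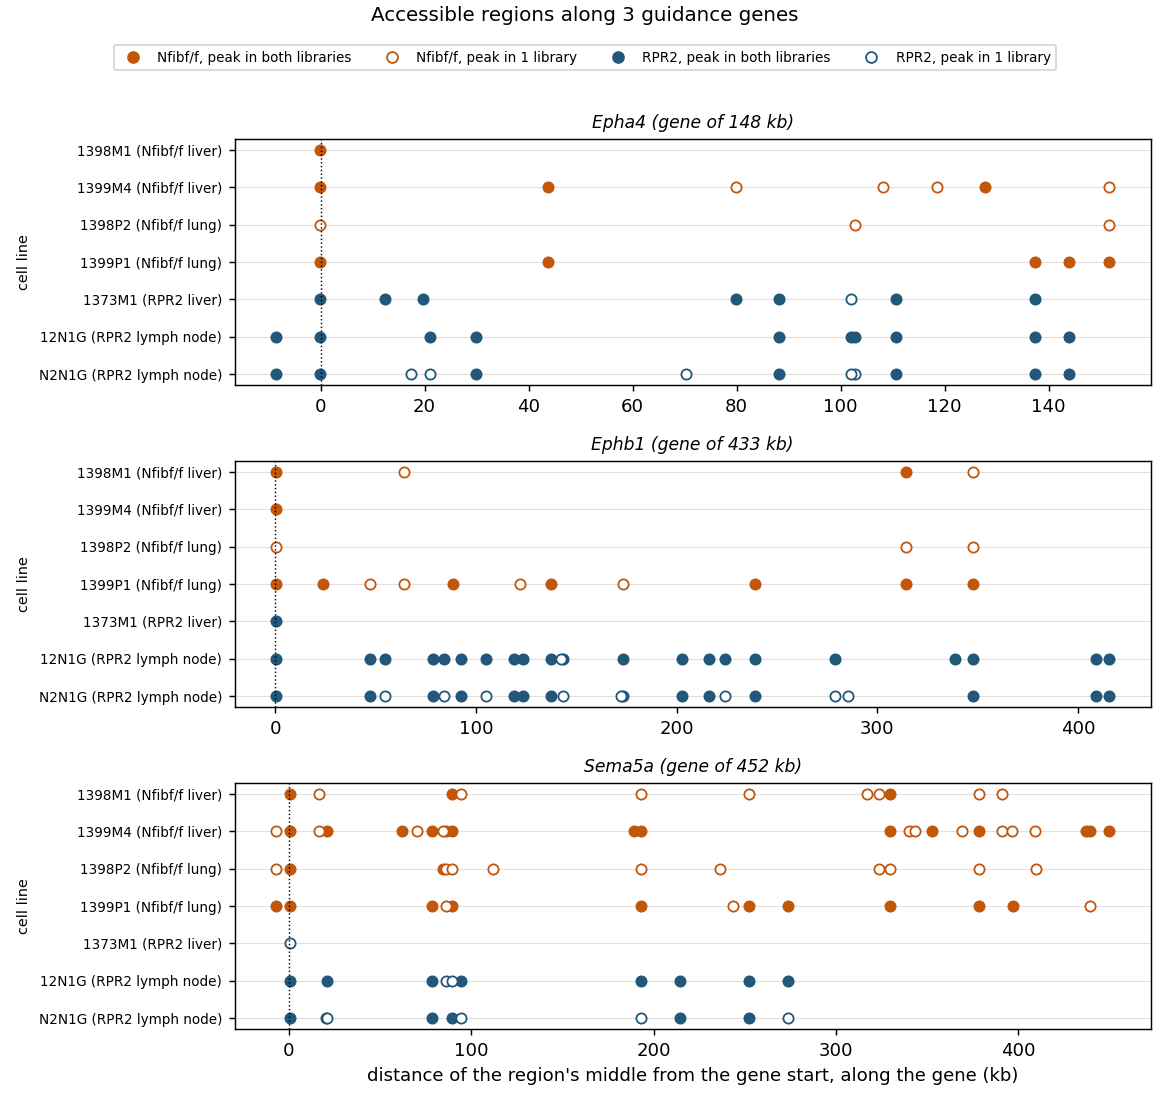
Accessible regions along Epha4, Ephb1 and Sema5a by distance from the gene start in kb (x axis) in 7 lines (rows, Nfibf/f orange above RPR2 blue). Filled circles are regions with a peak in both libraries and open circles in 1; at Epha4 the regions beyond the start differ between lines, and at Ephb1 and Sema5a the row of 1373M1 holds the start alone.

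Other EphA genes had their highest numbers in 1373M1. Epha5, known from retinal and hippocampal maps, had 2, 3, 0 and 3.5 regions in the 4 Nfibf/f lines 1398M1, 1399M4, 1398P2 and 1399P1 (means of 2 libraries), against 10, 5.5 and 7.5 in the RPR2 lines 1373M1, 12N1G and N2N1G. Epha6, a related receptor of neurons, had 4.5, 2.5, 1.5 and 3 regions in the Nfibf/f lines, in the same order, against 10, 5.5 and 4.5 in the RPR2 lines. Epha8, a receptor of the developing midbrain, had 6, 4.5, 3 and 4.5 regions, against 11.5, 7 and 6.5. Before scaling the groups met at 4.5 for Epha6 and were apart for the other genes. The log2 differences were -2.06 ± 0.62 for Epha5 (SE, limma, adjusted p = 0.115), -1.14 ± 0.31 for Epha6 (adjusted p = 0.0967) and -0.86 ± 0.23 for Epha8 (adjusted p = 0.0964). Epha2 and Epha10 had differences of -0.44 and -0.49, also with no overlap between groups after scaling, and Epha3 one of -0.58 with overlap. The local background of reads was solved at peak summits alone, so it depends on which peaks were called. Its median over the summits within 500 kb of Epha8 is given in multiples of the lowest background of the library. It was 3.07 to 4.37 in Nfibf/f and 8.75 and 10.69 in 1373M1, with 4.43 to 5.55 in the lymph node lines. Ephb2, its neighbor on chromosome 4, shared that high background, at 9.87 and 10.84 in 1373M1. Around Epha10 the background was 1.97 to 3.32 in Nfibf/f and 5.27 to 6.06 in RPR2, and around Epha4 it was 1.00 to 1.78 and 1.15 to 1.66. The part of local background in these differences was not tested.

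Of the EphB receptors, whose ligands are the ephrin-B proteins, 3 were tested and all were negative. Ephb2, a receptor of axons and of the intestinal crypt, had 24.5, 19.5, 15 and 21.5 regions in the Nfibf/f lines, against 29, 26 and 24.5 in the RPR2 lines. Scaled numbers did not overlap, and the log2 difference was -0.46 ± 0.15 (SE, limma, adjusted p = 0.139). Ephb1 had 3, 1, 1.5 and 9 regions in the Nfibf/f lines, against 1, 21.5 and 18 in the RPR2 lines, so that the lowest values of both groups met. Its log2 difference was -1.47 ± 0.92 (adjusted p = 0.397). Without 1373M1 Ephb1 was called lower at -2.72 ± 0.57 (adjusted p = 0.039), as 1 of 50 members tested, beside 325 of all 7629 genes. In the other settings its adjusted p lay between 0.257 and 0.772. None of the ligands was called either. The 5 ephrin-A genes had log2 differences between -0.15 and 0.21, with Efna3 and Efna2 (0.07) positive and the other 3 negative, and Efna3 was the highest at 0.21 ± 0.17 (adjusted p = 0.514). Its regions are partly those of Efna4, its neighbor on chromosome 3, as the 10 kb flanks overlap. Efnb2, the ephrin-B ligand of arteries, was at -0.47 ± 0.19 (adjusted p = 0.198).

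Among the plexins, receptors of the semaphorins, 6 of 8 tested were negative. Plxnd1, the receptor of Sema3e in blood vessels, had 4, 5, 3 and 6.5 regions in the Nfibf/f lines, against 8, 7 and 7 in the RPR2 lines. Plxna1, a partner of the neuropilins, had 3.5, 5, 3.5 and 4 regions, against 7, 5.5 and 5.5. Neither gene had overlapping groups. The log2 differences were -0.71 ± 0.17 for Plxnd1 (SE, limma, adjusted p = 0.0785) and -0.58 ± 0.15 for Plxna1 (adjusted p = 0.0897). Around Plxna1 the local background was 2.65 to 3.64 in Nfibf/f and 4.69 to 6.0 in RPR2, and its part in the difference was not tested. Plxnb1, the receptor of Sema4d, ran the other way, with 4, 4.5, 3.5 and 5 regions in the Nfibf/f lines, against 3, 3.5 and 3.5 in the RPR2 lines. Its groups met at 3.5 before scaling and were apart after it, and its log2 difference was 0.26 ± 0.12 (adjusted p = 0.243). Plxnb2, a receptor of class 4 semaphorins, was at 0.07. Of the neuropilins, Nrp1, which binds Sema3a and VEGF, was at 0.21 ± 0.17 (adjusted p = 0.514) and Nrp2 at -0.21.

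Of 17 semaphorins tested, 14 were negative and 3 positive, with a median log2 difference of -0.25. Sema5b, a transmembrane semaphorin with thrombospondin repeats, had 7.5, 7.5, 7 and 11.5 regions in the Nfibf/f lines, against 9.5, 13.5 and 13 in the RPR2 lines. Line 1399P1 lay above 1373M1, so the groups overlapped. The log2 difference was -0.55 ± 0.19 (SE, limma, adjusted p = 0.142). Sema5a, its closest relative, had the largest positive value of the members at 1.3 ± 0.71 (adjusted p = 0.327). It was 0.25 ± 0.32 without 1373M1. Sema6d, a ligand of Plxna1, was at 0.21 ± 0.26 (adjusted p = 0.714), with 32.5 regions in 1398M1 and between 15 and 20 in the other 6 lines.

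Netrins and their receptors did not move together. Ntn1, the attractant of commissural axons, had 10.5, 12, 7.5 and 7 regions in the Nfibf/f lines, against 19, 16 and 12.5 in the RPR2 lines. The highest Nfibf/f line, 1399M4, lay just under the lowest RPR2 line, N2N1G. The log2 difference was -0.81 ± 0.23 (SE, limma, adjusted p = 0.102). Ntn4, a netrin of basement membranes, was at 0.09, Ntn5 at 0.09 and Ntn3 at 0.02, and the 3 netrins tested with equal numbers of peaks were all negative. Unc5a, a repulsive netrin receptor, had 7, 7, 6.5 and 11 regions in the Nfibf/f lines, against 13, 10 and 11.5 in the RPR2 lines, and its groups were apart after scaling alone. The log2 difference was -0.59 ± 0.18 (adjusted p = 0.116). Unc5b, Unc5c and Unc5d were at -0.09, -0.06 and 0.21, and the value of Unc5d turned to -0.75 without 1373M1. Among other genes of these pathways none was called between genotypes: 0 of 10 tested netrin partners (Dcc, Neo1 and others), 0 of 16 tested genes of semaphorin signalling (the collapsin response mediators, Mical and Farp genes and others) and 0 of 17 of ephrin signalling (Ngef, Vav, Nck and Pak genes and others), with medians of -0.05, -0.06 and 0.07. At an unadjusted p under 0.05 these lists had 1 lower, 3 higher with 2 lower, and 1 higher.

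**Figure D5:**
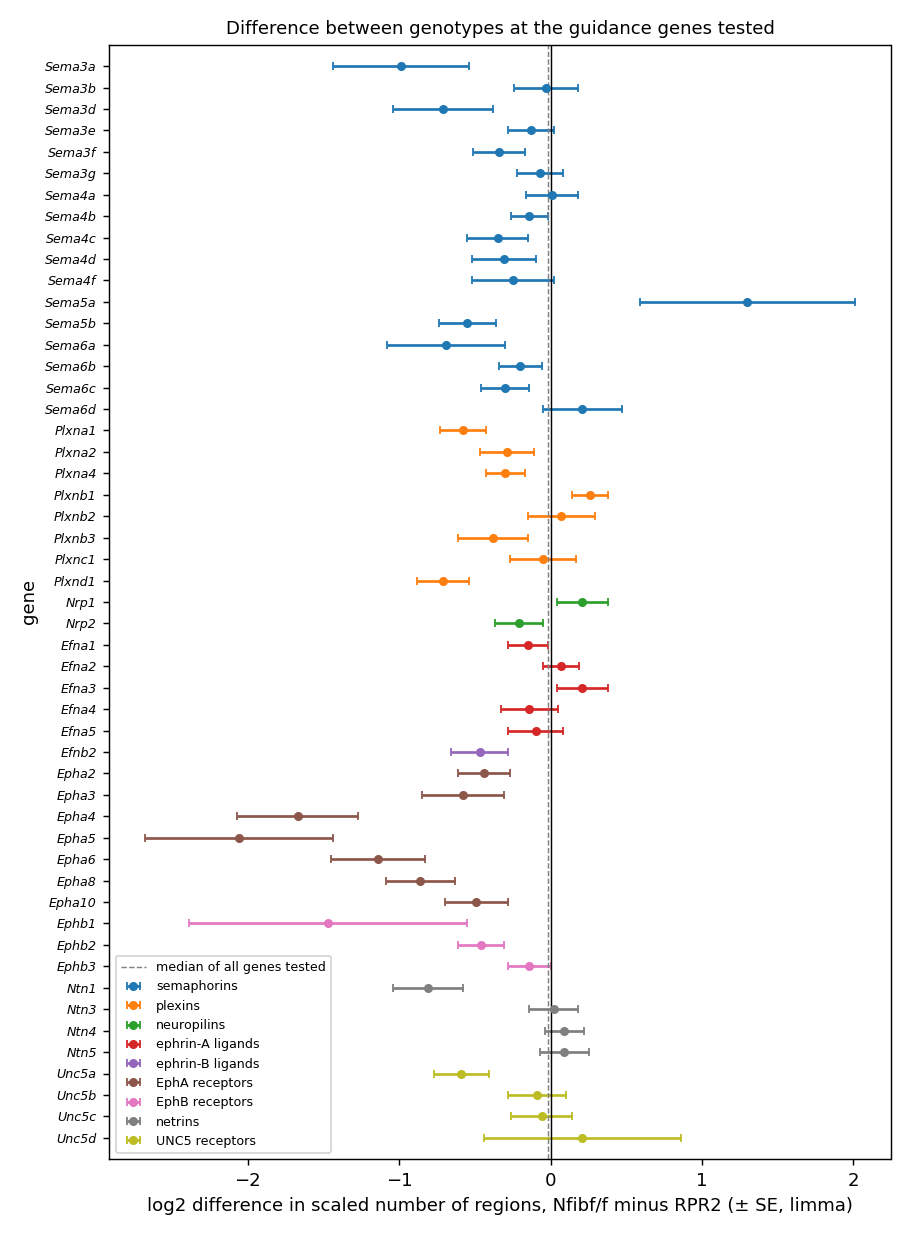
Log2 difference in the scaled number of regions, Nfibf/f minus RPR2 (x axis, points with SE from limma), for the 51 guidance genes tested (rows, colored by family). All 7 EphA points lie left of 0, and the dashed line is the median of all genes tested at -0.02.

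Single regions were then sorted by genotype. In the members, 17 regions at 12 genes were open in all 3 RPR2 lines and closed in all 4 Nfibf/f lines, which is 1.85% of their 918 regions, against 0.778% of the regions of all genes. The reverse held for 3 regions (0.327%), against 0.48%. Among genes tested, 2 of 51 members (3.92%) held an Nfibf/f region, against 6.58% of all genes, and 10 of 51 (19.6%) an RPR2 region, against 9.74%. Long genes hold more regions, and this was not adjusted for. None of the regions specific to a genotype lay in a start window, and 16 of the 17 RPR2 regions were in gene bodies. For Ntn1, Plxna1, Plxna4, Sema3f and Sema6a no start window was at hand, so their regions could not be placed in one. Plxna4, a receptor of Sema3a, and Ntn1 held 3 each of the RPR2 regions and Epha4 held 2. Epha7, Plxna1, Plxna2, Efna4, Sema3c, Sema3e, Sema3f, Sema4d and Sema6a held 1 each. At Epha4 they were chr1:77404103-77404821 and chr1:77426579-77427357, at 110267 and 87731 bp from the start (closest edge). At Plxna4 they were chr6:32355547-32356186, chr6:32373803-32374437 and chr6:32402774-32403373. Within Ntn1 the pattern went both ways. Its regions chr11:68226613-68227496, chr11:68355496-68356003 and chr11:68356869-68357431 were open in RPR2 alone, and chr11:68333420-68334650 was open in Nfibf/f alone. The other Nfibf/f regions were chr10:93646531-93647033 and chr10:93682103-93682707, both in Ntn4. Positions are on GRCm38, and exons or introns are not assigned because exon positions were not used here. Without 1373M1 the RPR2 count was 45 (4.9% against 2.74% of all), and without 1399P1 it was 32 (3.49% against 1.66%). The Nfibf/f count was 9 without 1398M1 (0.98% against 1.08% of all), 8 without 1399M4 (0.871% against 0.878%), without 1398P2 (0.871% against 1.01%) or without its second library (0.871% against 0.952%), and 6 without 1373M1 (0.654% against 1.01%). Each of these shares was under that of all genes.

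The second comparison set liver metastasis against lung tumor lines within Nfibf/f, with 2 lines each. No member was called, against 0.0531% of all genes tested, and 2 had an unadjusted p under 0.05, against 7.08% of all (3.98% higher and 3.09% lower). Both were higher in liver. Plxnc1, the receptor of Sema7a, had 8.5 and 7 regions in the liver lines, against 3.5 and 6 in the lung lines, and the log2 difference was 0.61 (limma, adjusted p = 0.642). Sema3d, a secreted semaphorin, had 5 and 3 regions, against 1 and 3, with a difference of 0.88 (adjusted p = 0.681). The lowest value of each lung pair belonged to 1398P2, whose second library is the shallow one. Its part in the difference was not tested. Of the 51 members, 33 were positive and 18 negative, with a median of 0.15, against -0.01 over all genes. Ephb1 had the largest negative value at -0.98 (adjusted p = 0.774), with 3 and 1 regions in liver and 1.5 and 9 in lung. The largest positive value was that of Epha5 at 1.09 ± 0.75 (adjusted p = 0.812), with 2 and 3 regions in liver and 0 and 3.5 in lung. By p, the next positive ones were Ntn1 at 0.51 ± 0.23, Epha3 at 0.51 ± 0.26 and Sema6a, a transmembrane semaphorin, at 0.87 ± 0.45 (SE, limma, adjusted p = 0.681 to 0.716). Sema6a had 8 and 6 regions in liver and 1.5 and 7 in lung, so that 1398P2 alone was low. The other negative ones with the smallest p were Sema5b at -0.33 ± 0.19, Unc5a at -0.34 ± 0.20, Plxna2, a receptor of class 3 and 6 semaphorins, at -0.34 ± 0.22 and Ephb3 at -0.23 ± 0.17 (adjusted p = 0.758 to 0.836). In the 3 pathway lists none of the 10, 16 and 17 genes tested was called between liver and lung.

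The third comparison set lymph node against liver metastasis lines within RPR2, 12N1G and N2N1G against 1373M1. Here 2 members were called, both higher in the lymph node lines, of 51 tested, against 1.79% of all genes tested and 1.47% called higher. At an unadjusted p under 0.05, 5 members were higher and 3 lower, against 7.06% and 6.39% of all genes. The liver group was 1 line, which was assumed to vary like the other groups. At both genes called, that line was also below all 4 Nfibf/f lines. Unc5d, a netrin receptor family member that also binds FLRT proteins, had 12 and 9 regions in 12N1G and 11 and 11 in N2N1G, against 1 and 1 in 1373M1. Its log2 difference was 2.90 ± 0.40 (SE, limma, adjusted p = 0.0109). In 1373M1 the one region was chr8:29218553-29220002, across the high-coordinate edge of the gene body, which had a peak in all 14 libraries. The Nfibf/f lines 1398M1, 1399M4, 1398P2 and 1399P1 had 8.5, 5, 4 and 9.5 regions at Unc5d (means of 2 libraries). Sema5a had 7, 19, 7 and 11.5 regions in those Nfibf/f lines. In RPR2 Sema5a had 9 and 9 regions in 12N1G and 7 and 8 in N2N1G, against 1 and 0 in 1373M1. The one peak of 1373M1 was at the start shown above for Sema5a. Its log2 difference was 3.13 ± 0.46 (adjusted p = 0.0132).

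Ephb1, a receptor that turns retinal axons away from the midline, had the largest log2 difference and fell just short. It had 22 and 21 regions in 12N1G and 18 and 18 in N2N1G, against 1 and 1 in 1373M1. The difference was 3.75 ± 0.74 (SE, limma, adjusted p = 0.0516). Among the Nfibf/f lines 1399P1 had 9 and 9 regions and the others 0 to 4, so Ephb1 bodies were also open outside the lymph node lines. In 13 of the 14 libraries the start had a peak, the exception being the second library of 1398P2. Sema4f, a class 4 semaphorin, had 4.5 and 5 regions in the lymph node lines, against 2 in 1373M1 (log2 difference 1.06 ± 0.24, adjusted p = 0.0882). Plxnb2 had 5.5 and 6, against 3 (0.82 ± 0.24, adjusted p = 0.195).

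Lower values in the lymph node lines were found at EphA genes, with none called. Of 7 tested, 6 were negative and 3 had an unadjusted p under 0.05. Epha8 was at -0.75 ± 0.26 (SE, limma, adjusted p = 0.254), Epha6 at -0.96 ± 0.36 (adjusted p = 0.298) and Epha3 at -0.73 ± 0.31 (adjusted p = 0.37). Sema3a, the repellent that collapses growth cones, had 3.5 and 4.5 regions in the lymph node lines, against 10 in 1373M1 (-1.25 ± 0.61, adjusted p = 0.445). Ntn1 was at -0.43 ± 0.28 (adjusted p = 0.601). The local background around the called genes overlapped between groups. Around Unc5d it was 1.15 to 1.34 times the lowest of the library in the lymph node lines and 1.11 and 1.75 in 1373M1, and around Sema5a 1.15 to 1.58 and 1.88 and 1.48. In the 1000 kb on either side of Unc5d, beyond its flanks, the lymph node lines had 21 and 19 peaks, against 7 in 1373M1, and the Nfibf/f lines had 5.5 to 15. Around Sema5a the lymph node lines had 45 and 41, against 34.5 in 1373M1. The part of the neighboring regions in these calls was not tested.

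Other genes of the pathways were also called in this comparison. Vav3, an exchange factor downstream of Eph receptors, had 5 and 6.5 regions in the lymph node lines, against 0 in 1373M1, with a fitted log2 difference of 3.66 ± 0.28 (SE, limma, adjusted p = 0.0011) that depends on the 0.5 added. Ntng1, a membrane-bound netrin relative, had 10.5 and 11.5, against 2.5 (1.93 ± 0.25, adjusted p = 0.00851). Dscam, a netrin receptor, had 24 and 26, against 10.5 (1.20 ± 0.21, adjusted p = 0.0331). Dcc, the attractive netrin receptor, was the one called lower, with 10 and 9.5, against 21.5 (-1.12 ± 0.21, adjusted p = 0.0436). These were 3 of 10 tested netrin partners and 1 of 17 tested ephrin signalling genes, against 1.47% of all genes called higher and 0.319% called lower, and none of 16 in semaphorin signalling was called.

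The last comparison set Nfibf/f against RPR2 in liver metastases, 1398M1 and 1399M4 against 1373M1. It shares 1373M1 with the third, so a gene that is empty in that line stands out in both. Sema5a was called higher, with 5 and 9 regions in 1398M1 and 20 and 18 in 1399M4, against 1 and 0 in 1373M1 (log2 difference 3.51 ± 0.46, SE, limma, adjusted p = 0.0122). It was 1 of 51 members, or 1.96%, against 1.25% of all genes tested, of which 1.12% were called higher and 0.133% lower. At an unadjusted p under 0.05, 4 members were higher and 9 lower, against 7.62% and 6.23% of all genes. Unc5d had 8.5 and 5 regions, against 1, and did not pass (2.14 ± 0.40, adjusted p = 0.053). All 7 EphA genes were negative, with a median of -1.17 and none called. Epha8 was at -1.17 ± 0.26 (adjusted p = 0.0945) and Epha6 at -1.53 ± 0.36 (adjusted p = 0.112). Outside the EphA genes, Unc5a was at -0.95 ± 0.25 (adjusted p = 0.146), Plxna1 at -0.78 ± 0.23 (adjusted p = 0.202) and Plxnd1 at -0.87 ± 0.29 (adjusted p = 0.235). On the positive side stood Plxnb2 at 0.66 ± 0.24 (adjusted p = 0.281), Sema4f at 0.59 ± 0.24 (adjusted p = 0.336) and Plxnb1 at 0.34 ± 0.20 (adjusted p = 0.499). Of the other genes of the pathways Vav3 was called, at 6.5 and 8 regions in the Nfibf/f lines, against 0 in 1373M1, with a fitted value of 3.89 ± 0.28 (adjusted p = 0.00132). It was 1 of 17 tested ephrin signalling genes, beside 0 of 10 netrin partners and 0 of 16 in semaphorin signalling. For Plxnb2 and Sema4f the one RPR2 line, 1373M1, was also lower than both lymph node lines.

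The calls between lymph node and liver and between genotypes in liver rest on a spread estimated from 3 residual degrees of freedom over all lines, and on 1373M1 as the one line of its group. Without scaling, without the filter on the mean, or with equal numbers of peaks per library, 0 members were called in both. Over all genes, in the same order, these settings called 0 and 0 of 7657, 81 and 46 of 19179, and 6 and 5 of 3006. In the last of these settings Sema5a and Unc5d had too few regions to be tested. No member was called either without 1398P2, either of its libraries, 1399P1, or all libraries of one number, and between genotypes in liver without 1399M4. Among these, leaving out the first library of every line called no gene at all in both comparisons, of 7102 tested. The other settings with a library or line left out and no member called still called genes outside the members, in both comparisons. Over all left-out libraries and lines the fitted values between lymph node and liver stayed between 2.74 and 3.05 for Unc5d and between 2.54 and 4.14 for Sema5a. Without 1398M1 or 1399M4, Sema5a alone was called there, and 4 members were called without the first library of 1373M1, which added Ephb1 and Sema4f. Ephb1 was added as well without N2N1G, its second library, or the second library of 1398M1, 1373M1 or 12N1G. Between genotypes in liver, Unc5d was called beside Sema5a without 12N1G, N2N1G, either library of 1373M1, the first of 1399M4 or the second of 1399P1, and Epha6 was called lower in place of Sema5a without the second library of 1398M1.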

How the data were processed

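Chromatin accessibility was measured in 14 ATAC-seq libraries of 7 cell lines, 2 per line. Per the labels' protocols, suspension cells went through OMNI-ATAC and paired-end sequencing. The tools named in the submitters' processing notes are MACS2, Bowtie2, SAMtools, Picard and cutadapt 2.10, and the builds GRCm38 and mm10. The settings, and whether reads were shifted for the cut made by the transposase, were not stated there. The authors deposited 1 peak list per library, not pooled. The lists hold, for each summit, the authors' deposited fold enrichment (a ratio to local background), the deposited -log10 p-value and the deposited -log10 q-value, whose lowest value was 1.3. The deposited score was not used. Peak names in 10 of the 14 lists carry GRCh38, but they had a peak in 38 to 55 of the 67 mouse start windows of members, against 52 to 55 in the 4 lists that carry GRCm38, so all were read as GRCm38.

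Peaks of any library sharing 1 bp or more were joined, giving 177684 regions. The number of regions with a peak per gene body plus 10 kb (RefSeq table of GRCm38.p6, which gives no strand or exons) was averaged over the 2 libraries of a line and scaled to a common total of the line over protein-coding genes. The test was limma 3.58.1 (R 4.3.3, eBayes with a trend), run on log2(number + 0.5) for 7533 genes with a mean of at least 3, with Benjamini-Hochberg adjustment at 0.05. The genotype fit had 4 against 3 lines, and the tissue contrasts came from 1 fit of 4 groups. The lists hold no read totals, so depth was solved from fold and p of 1192565 summits under a Poisson model. Of the solved pileups 99.6% were whole within 0.02, and the lowest background of a library gave its fragments per base pair. On simulated data for the genotype comparison (7479 genes run), 46.8% of 77 genes changed 2-fold and 91.4% of 70 changed 4-fold were called, beside 1 of 7332 unchanged. The simulated numbers were Poisson draws around 1 mean per gene and genotype, with no spread between lines beyond their totals. These shares therefore do not give the rates of calls in the real lines.

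Start windows and sequences came from RefSeq, and 53 of 61 members matched. Genes are named in the text if they passed the adjusted threshold, were among the 10 members per direction with the smallest p between genotypes or the 5 in a tissue comparison, held a region specific to one genotype, or had the most regions of their role. Starts that differed between lines, and members named for a region count or pattern, were chosen after their values were seen. The members and lists were chosen with earlier results of these data known. p-values measure the spread between these lines.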

Additional observations from a re-analysis of the deposited data

How the results depend on the processing

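Of 1641 values of named genes under other settings, 1566 kept their direction and their side of the threshold, 28 no longer passed it, 30 passed it anew and 17 turned round. Most of these genes had not passed at first, so only the calls of the main fit could be lost. Between lymph node and liver, the call held in 22 of 32 other settings for Unc5d and in 24 of 32 for Sema5a. Between genotypes in liver, that of Sema5a held in 22 of 32. Between genotypes 0 members were called, against 1 at a -log10 q of at least 3 and 1 among regions open in at least 1 line (Plxnd1 in both, with the setting on open regions chosen after seeing the data), 2 with equal numbers of peaks per library (Ephb2 and Sema5b) and 0 to 1 with a library or line left out. In the same order, the settings before the left-out ones called 39 of 7039, 98 of 6980 and 53 of 3006 genes. The left-out setting with a member call, without 1373M1, called 325 of 7629 genes. The correlation between deviations of same-numbered libraries over 21 pairs of lines had a median of 0.02 and passed 0.1 in 2, so the numbers do not pair libraries. One setting fitted the 14 libraries singly, with the line as the block of correlated libraries and the replicate number as a covariate. Its units were thus libraries rather than lines. It called 5 members between genotypes (Epha5, Ephb2, Ntn1, Plxnd1 and Unc5a), beside 332 of all 7562 genes tested. Between lymph node and liver the 2 calls became 0 without the filter, without scaling and with equal numbers of peaks, and 0 to 4 with a library or line left out. The fit of single libraries gave 3 there, beside 207 of all 7562 genes. Between genotypes in liver the 1 call became 0 in the same 3 settings, 2 with 50 kb flanks and 2 with the lymph node lines averaged. It became 3 in the fit of single libraries, beside 156 of all 7562 genes, and 0 to 2 with a library or line left out. Between liver and lung no setting gave a member call. Over all genes, the main counts of calls were 81 between genotypes, 4 between liver and lung, 135 between lymph node and liver and 94 between genotypes in liver, against 1 to 332, 0 to 11, 0 to 274 and 0 to 170 in the other settings. Regions open in Nfibf/f alone numbered 3, against 1 at the stricter q, 1 with equal numbers of peaks, 5 with 50 kb flanks and 3 to 15 with libraries or lines left out. Regions open in RPR2 alone numbered 17, against 13 with equal numbers of peaks, 16 with the gene body alone and 18 at the stricter q. They numbered 26 with 50 kb flanks and 17 to 45 with libraries or lines left out. With equal numbers of peaks they were 2.88% of member regions, against 1.32% over all genes, and with 50 kb flanks 1.81%, against 0.772%. For Nfibf/f these shares were 0.221%, against 0.623%, and 0.348%, against 0.47%. The cause of these changes was not tested.

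Some values changed sign. Between genotypes Ntn4 was -0.15 with 50 kb flanks and -0.17 with equal numbers of peaks, Ntn5 -0.09 at the stricter q and -0.0 with equal numbers, Efna2 -0.04 among regions open in at least 1 line and Plxnb2 -0.01 with 50 kb flanks. Between liver and lung, with equal numbers of peaks, Sema5b was 0.24 and Ephb3 0.09. With libraries or lines left out, Efna3 ranged from -0.1 to 0.44, Sema6d from -0.03 to 0.35, Ntn5 from -0.09 to 0.27, Unc5d from -0.75 to 0.72 and Plxnb2 from -0.21 to 0.24 between genotypes, and Ephb1 from -1.93 to 0.24 between liver and lung. The 7 EphA genes stayed negative in the settings that tested them except with 50 kb flanks, where 2 of 8 were positive. With equal numbers of peaks none reached the filter. The second library of 1398P2 had the fewest peaks and the lowest depth, and the part of its depth in these values was not tested.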
